A study of Mus musculus with 30 samples.

Results

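Matrix metalloproteases, their tissue inhibitors (Timps) and serpins were followed in mouse embryonic fibroblasts (MEFs) exposed to 3 stresses, with and without p38α activity. The genes were taken by symbol (Mmp, Timp or Serpin clades a to i on non-control spots) and not by their values, which gave the 74 described here of the 21689 named genes on the array, carried by 98 of 33453 probes. They comprise 21 Mmp genes, 4 Timp genes and 49 serpins, of which 17 are clade a and 23 clade b.

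Matrix metalloproteases are zinc endopeptidases, secreted or anchored in the membrane, that cut collagens, proteoglycans and other matrix proteins, and Timps occupy their active site. Serpins are suicide substrates: a serine protease cleaves the exposed loop of the serpin and stays trapped on it. In fibroblasts the 2 families meet in the plasmin cascade, where plasminogen activators make plasmin, plasmin activates several Mmp proenzymes, and serpins such as protease nexin-1 (Serpine2) hold the activators in check.

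Wild type and p38α-/- MEFs, both immortalised lines, were stressed with 25 ng/ml anisomycin for 45 min, 100 ng/ml TNFα for 45 min, or 100 mM NaCl. Anisomycin inhibits protein synthesis and activates stress kinases, TNFα is an inflammatory cytokine, and NaCl raises the osmolarity of the medium. In wild type cells NaCl lasted 45 min, 2 h or 8 h, each of the 5 stresses was also given after SB203580 (10 µM), an inhibitor of p38α and p38β, and 1 further group had SB203580 alone. The p38α-/- cells were left untreated or given anisomycin, TNFα or NaCl for 2 h, without inhibitor. Each of these 15 groups was hybridised on 2 arrays, each time against the same Cy3 reference, RNA pooled from 2 untreated cultures of wild type cells, with the sample in Cy5, so 30 arrays entered the analysis. All values below are log2 ratios of sample over pool unless a difference is named, 0 means the level of the pool, and errors are standard errors from limma. No untreated wild type culture was hybridised in Cy5 and no dyes were swapped, so in comparisons with the pool a dye bias of a probe and the state of the pool cannot be told apart from the treatment. Differences between groups are free of both.

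Well above background lay 81.1% to 96.8% of the spots of an array in Cy5 and 92.6% to 98.9% in Cy3. The scanner software marked 6.78% to 44.8% of an array's spots as outliers, and these were left out. Of the 74 genes, 57 had a spot well above background in both channels on every array, 36 were measured on all 30 arrays after the marked spots were left out, and 12 on fewer than 20. None was saturated. Pairs of arrays of 1 group correlated across genes at r = 0.41 to 0.67. Mapk14, which encodes p38α, read from 0.05 to 1.31 on the 16 wild type arrays that measured it and from −2.24 to −0.94 on the 6 p38α-/- arrays, with no overlap. All 9 fibroblast markers examined were well above background on every array, but so were all 5 leukocyte, all 5 epithelial and all 6 osteoblast and chondrocyte markers, 3 of 4 endothelial and 2 of 5 hepatocyte markers, so the background flag did not separate cell types. Hepatocytes make most plasma serpins, and no hepatocyte marker was called in the 12 comparisons counted below. Among the other lists the osteoblast marker Runx2 was called in 5 of the 7 comparisons with the pool (0.90 to 1.08), SB203580 alone had Sox9 (1.81) and Bglap1 (0.47) higher and Fn1 (−0.55), Krt1-18 (−0.68) and Tacstd1 (−0.32) lower, anisomycin had Col1a1 (−0.40) and Col3a1 (−0.64) lower, and NaCl had Cdh1 higher at 2 h (0.35) and 8 h (0.31), and Itgam higher (0.41) and Fn1 lower (−0.38) at 8 h. Their part in the results was not tested.

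Promoters of 60 of the 74 genes were found in RefSeq (build GRCm38.p6), each reaching from 250 bases before the transcription start to 50 after it. The heptamer TGANTCA was searched on both strands (it is its own reverse complement in its fixed letters). It includes the AP-1 consensus, which has C or G in the middle, but also admits A or T there. The middle letter is G in the Mmp10 promoter printed below and A in that of Mmp20. Hits with A or T were not counted apart. The heptamer stood in a promoter of 16 of these 60 genes (26.7%). It stood in 8.97% of all 27025 genes with a promoter of that length (7.81% of all 32851 promoters). By gene it was found for 7 of the 8 Mmps on chromosome 9, for 7 of 12 serpins on chromosome 1, for 2 of 10 on chromosome 12 and for 0 of 11 on chromosome 13. The cyclic AMP response element TGACGTCA was found for 0 of the 60, against 2.03% of all genes (1.79% of all promoters). Printed here, with the heptamer in capitals, are the promoters of the 4 Mmp genes followed through the NaCl times: Mmp10 (chr9:7502092-7502391, plus strand), with the heptamer starting 63 bases before the transcription start, Mmp20 (chr9:7627981-7628280, plus strand), with the heptamer 95 bases before it, and Mmp15 (chr8:95352046-95352345, plus strand) and Mmp11 (chr10:75932453-75932752, minus strand), where these letters were not found.
Mmp10: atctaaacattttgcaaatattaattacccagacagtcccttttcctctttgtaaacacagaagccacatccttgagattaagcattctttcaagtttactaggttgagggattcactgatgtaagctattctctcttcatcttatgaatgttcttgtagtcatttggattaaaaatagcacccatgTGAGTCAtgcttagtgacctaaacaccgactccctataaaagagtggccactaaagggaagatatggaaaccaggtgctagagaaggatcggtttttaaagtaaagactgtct
Mmp20: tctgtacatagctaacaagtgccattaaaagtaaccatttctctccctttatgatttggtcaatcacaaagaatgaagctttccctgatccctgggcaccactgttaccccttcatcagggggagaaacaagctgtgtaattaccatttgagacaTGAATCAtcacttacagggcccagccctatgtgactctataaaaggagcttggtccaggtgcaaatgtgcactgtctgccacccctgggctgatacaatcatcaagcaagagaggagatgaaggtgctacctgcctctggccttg
Mmp15: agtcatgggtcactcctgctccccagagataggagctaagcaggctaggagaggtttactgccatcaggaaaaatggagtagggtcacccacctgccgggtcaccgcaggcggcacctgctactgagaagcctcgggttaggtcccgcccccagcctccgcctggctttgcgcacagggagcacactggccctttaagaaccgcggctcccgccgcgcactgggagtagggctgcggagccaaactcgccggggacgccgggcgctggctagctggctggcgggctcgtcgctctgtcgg
Mmp11: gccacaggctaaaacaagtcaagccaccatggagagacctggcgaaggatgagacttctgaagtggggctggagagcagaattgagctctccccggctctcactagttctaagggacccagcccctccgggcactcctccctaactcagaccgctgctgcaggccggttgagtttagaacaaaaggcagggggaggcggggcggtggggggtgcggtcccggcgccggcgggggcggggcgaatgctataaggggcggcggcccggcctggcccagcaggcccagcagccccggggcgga

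Counted over all genes measured in each comparison, few of the proteases and inhibitors were called against the pool. After anisomycin 4 of 53 were called (1 higher, 3 lower) where 12% of all genes were, after TNFα 4 of 54 against 11%, and after NaCl 3 of 48 against 9.88% at 45 min, 3 of 61 against 9.92% at 2 h and 8 of 57 against 22.2% at 8 h. SB203580 alone gave 10 of 51 against 26.6%, and untreated p38α-/- cells 9 of 56 against 15%. Over the 12 comparisons counted here and below, 23 of the 74 were called at least once (6 Mmps and 17 serpins), 46 were tested and never called, and 5 (Mmp21, Serpina1d, Serpina3m, Serpina9 and Serping1) had too many marked spots to be tested. In this fit, without the replicate block, shares lay below the background in every comparison with the pool except untreated p38α-/- cells. Not all alternatives without the block kept this order. With normexp background correction 22.2% were called after TNFα, beside 15.8% of all genes, and 15.1% after anisomycin, beside 15.8%. In the fit without the block the median ratio of the members stayed between −0.09 and −0.01, beside 0.00 to 0.01 for all genes. Replicate numbers paired the arrays within a genotype, and with the number as a block the counts rose to 13 of 53 after anisomycin (24.5%, beside 21.2% of all genes), 13 of 54 after TNFα (24.1%, beside 18.1%), 10 of 48 at 45 min of NaCl (20.8%, beside 20.2%), 8 of 60 at 2 h (13.3%, beside 16.2%) and 14 of 56 in untreated p38α-/- cells (beside 21.3%). The shares after anisomycin, after TNFα and at 45 min of NaCl thus turned from below the background to above it. These counts include dim genes. Serpinb13, counted after TNFα and at 2 h of NaCl, was well above background in Cy5 on 0 of 30 arrays. Serpina1b, counted at 45 min of NaCl, was so on 12 of 30. The normexp count after TNFα also includes Serpinb13. Leaving out 1 array of a group left 1 to 4 called after anisomycin, 2 to 3 after TNFα, 1 to 4, 0 to 2 and 4 to 5 after the NaCl times, 1 to 10 for the inhibitor and 3 to 8 for untreated p38α-/- cells, so the counts rest on both arrays. Of 48 calls on single members in these and the later comparisons, 8 held whichever array was left out: Mmp10 at 8 h of NaCl, Serpinb6b between genotypes, and Serpinb9c in 6 of its 7 comparisons with the pool.

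**Figure D1:**
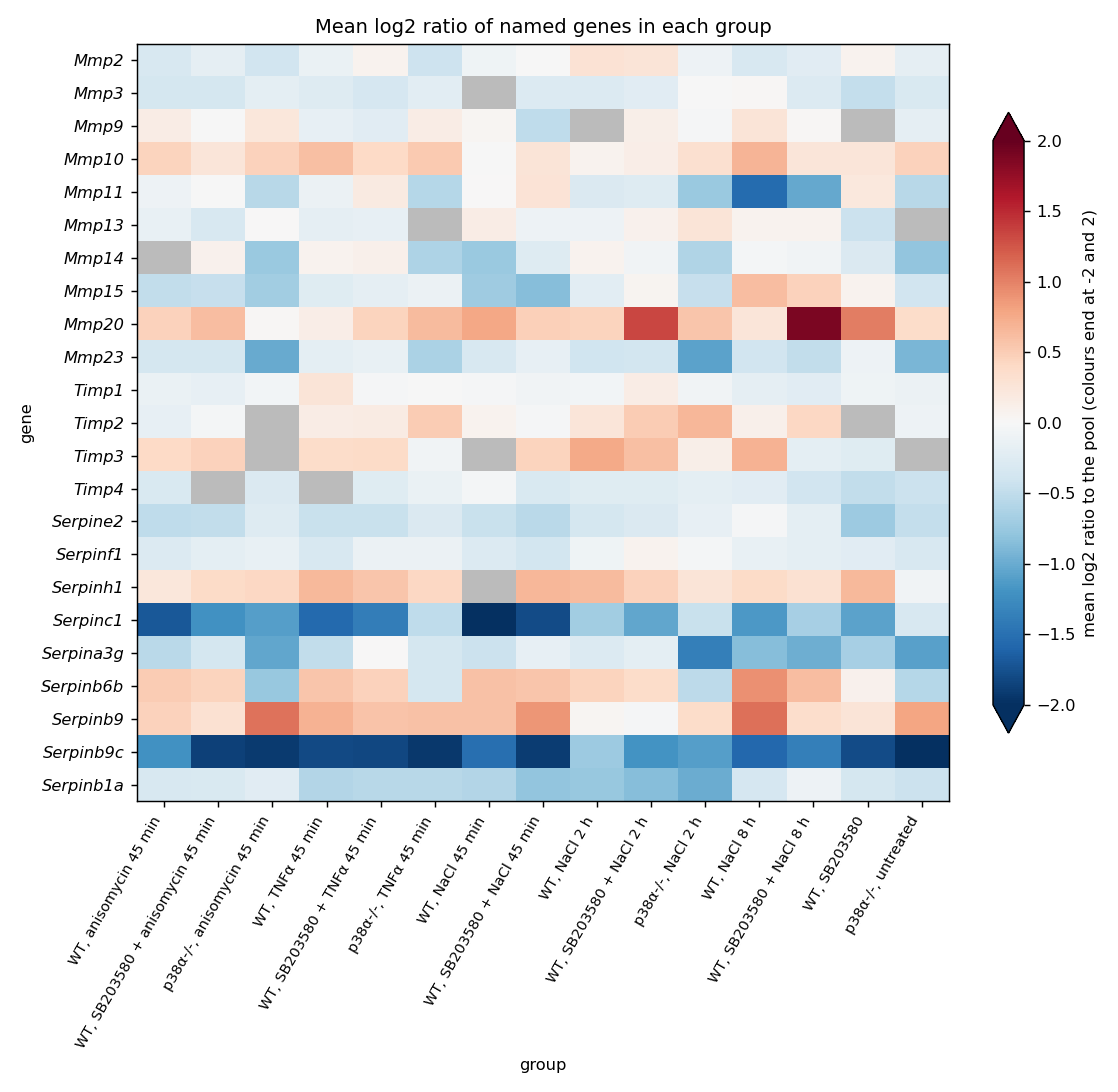
Mean log2 ratio over the untreated wild type pool of the named Mmp, Timp and serpin genes (rows) in the 15 groups (columns), with red above 0, blue below 0, colours that end at −2 and 2, and grey where no array measured the gene. A mean can rest on 1 array or 1 probe; Serpinb9c lies below the pool in every group.

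Mmp10 was called against the pool after anisomycin, after TNFα and at 8 h of NaCl, in the fit without the block and under each alternative but that of leaving 1 array out. Its product, stromelysin-2, cuts proteoglycans and activates other Mmp proenzymes. The ratio was −0.03 and 0.02 at 45 min of NaCl, −0.04 and 0.19 at 2 h, and 0.53 and 0.81 at 8 h, with no overlap between 8 h and either earlier time. It rose between 45 min and 8 h by 0.67 ± 0.16 (1.60-fold, adjusted p = 0.014) and between 2 h and 8 h by 0.60 ± 0.16 (adjusted p = 0.028). Both differences kept their sign with 1 array left out (0.53 to 0.81 and 0.46 to 0.74), but the adjusted p then reached 0.15 and 0.23, without the second 8 h array in each case. Mmp10 also stood above the pool after TNFα (0.81 and 0.41) and anisomycin (0.49 and 0.39), called at adjusted p = 0.0026 and 0.018, and in untreated p38α-/- cells (0.53 and 0.40, adjusted p = 0.011). With 1 array left out these 3 adjusted p reached 0.16, 0.29 and 0.26. With the inhibitor the 8 h arrays read 0.25 and 0.23, below both arrays without it, a difference of −0.43 ± 0.16 that was not called (adjusted p = 0.70). Stress gave no called change in p38α-/- cells, where Mmp10 was 0.26 and 0.67 after anisomycin, 0.58 and 0.46 after TNFα, and 0.20 and 0.42 after NaCl. The leukocyte marker Itgam was called in the same direction between 45 min and 8 h (0.49, 1 of 3 tested, beside 7.53% of all genes). Between 2 h and 8 h it was called too (0.36, 1 of 4, beside 7.81%), and its part in the result was not tested.

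At 8 h of NaCl Mmp15 stood higher and Mmp11 lower than at the earlier times. Mmp15, the membrane-anchored MT2-MMP, was −1.32 and −0.11 at 45 min, −0.30 and −0.11 at 2 h, and 0.32 and 0.92 at 8 h, and rose from 45 min to 8 h by 1.34 ± 0.38 (2.53-fold, adjusted p = 0.039). The first 45 min array carries much of this: without it the difference was 0.73 (adjusted p = 0.46), and only 1 of the 2 arrays at 45 min and at 2 h was well above background in Cy5. Background correction by normexp gave 0.44 (adjusted p = 0.082). With SB203580 Mmp15 read −1.0 and −0.71 at 45 min, not well above background on either array, −0.03 and 0.12 at 2 h, and 0.27 and 0.63 at 8 h. Mmp11, stromelysin-3, was −0.17 and 0.19 at 45 min, −0.29 on 1 array at 2 h, and −1.54 on the 1 array at 8 h whose spot was not marked as an outlier. In the inhibitor series it was 0.32 and 0.09 with SB203580 alone and −1.26 and −0.78 after 8 h of NaCl, a difference of −1.22 ± 0.26 (2.33-fold lower, adjusted p = 0.009). Leaving out the first SB203580 array or the first array at 8 h left −1.11 and −0.98 with adjusted p = 0.11 and 0.12. With marked spots kept, NaCl at 8 h without the inhibitor gave −1.23 against the pool (adjusted p = 9.5e-05), −1.24 against 45 min (adjusted p = 0.0059) and −0.97 against 2 h (adjusted p = 0.028).

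**Figure D2:**
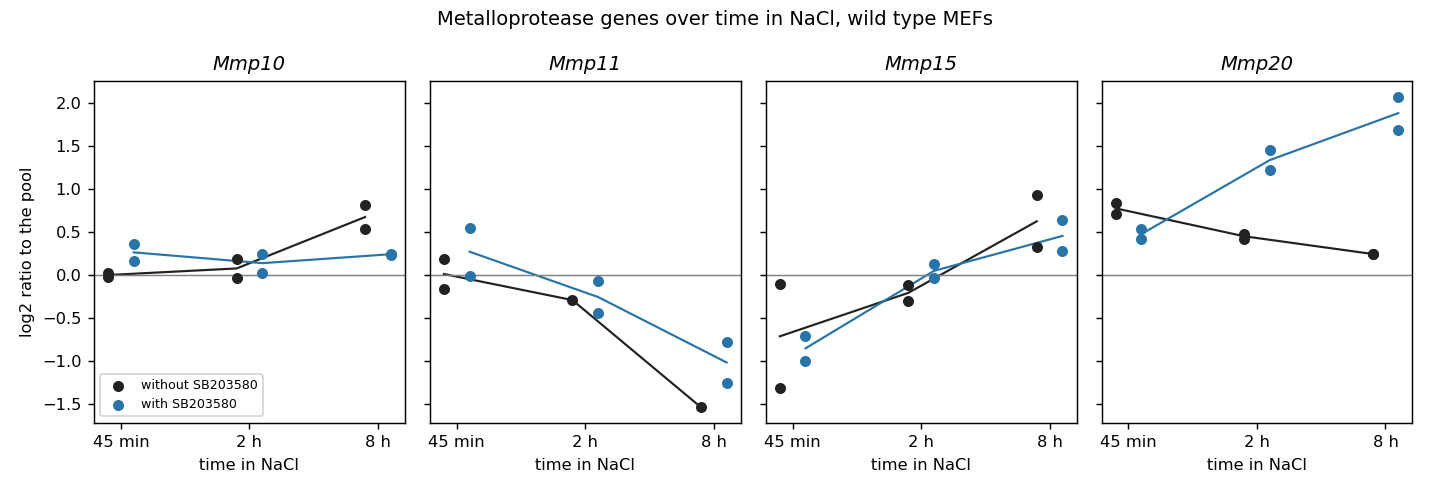
Log2 ratio over the untreated wild type pool at 45 min, 2 h and 8 h of NaCl for Mmp10, Mmp11, Mmp15 and Mmp20 in wild type cells, 1 point per array with unmarked spots and lines through the means, without and with SB203580; the 3 times are drawn at equal steps. Without the inhibitor Mmp10 and Mmp15 were highest at 8 h and Mmp11 lowest, and Mmp20 reached 2.07 and 1.69 at 8 h with the inhibitor.

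Across the NaCl times as a whole, 2 of 44 members were called between 45 min and 8 h, Mmp10 and Mmp15, where 7.53% of all genes were, and 1 of 52, Mmp10, between 2 h and 8 h, where 7.81% were. The replicate block raised the second count to 5, beside 11.2% of all genes, adding Mmp15 (0.83), Serpinb6b (0.46), Serpinb9 (1.07) and Serpinb9c (−0.84). Leaving out an array left 0 to 1 called in each.

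Mmp20, enamelysin, which processes the enamel matrix of developing teeth, was called above the pool with SB203580 alone. The inhibitor alone gave 1.19 and 0.86 (mean 1.03 ± 0.26, adjusted p = 0.0075, or 0.23 without the first array), and with NaCl it gave 0.42 and 0.53 at 45 min, 1.22 and 1.45 at 2 h, and 2.07 and 1.69 at 8 h. Without the inhibitor the NaCl arrays read 0.84 and 0.71, 0.42 and 0.48, and 0.25 and 0.24, so at 2 h and 8 h the arrays of the 2 conditions did not overlap, while at 45 min the order was the other way. The difference at 8 h was 1.64 ± 0.36 (95% interval of 0.88 to 2.40), with an adjusted p of 0.089 over all genes. It was called with the replicate block (1.64, adjusted p = 0.0016), with fewer arrays in the fit (adjusted p = 0.0026) and with normexp correction (0.88, adjusted p = 0.024). In p38α-/- cells the replicate 1 arrays, scanned with wild type replicate 2, read 0.59 to 1.03 and the replicate 2 arrays −0.55 to 0.49.

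Few genes of any kind were called for the inhibitor under stress. Averaged over the 5 stresses 0 of 37 were called by limma (3 at an unadjusted p under 0.05) beside 0.0742% of all genes, and at 8 h of NaCl 0 of 49 (2 unadjusted) beside 0.206%. With the replicate block Mmp20 was the 1 member called, both over the 5 stresses (0.54, adjusted p = 0.015), beside 0.232% of all genes, and at 8 h, beside 0.583%. With SB203580 alone, Serpine2 (−0.98 and −0.49, mean −0.73, adjusted p = 0.00066) and the serpins Serpinb11 (−0.59) and Serpina3a (−0.57) were called below the pool and Serpinb9b (0.57) above it, besides Serpinb9c and Mmp20; Serpine2 and Serpinb9c lay below the pool on every array that measured them, whatever the treatment. None of the calls of these 4 serpins held with 1 array left out (adjusted p up to 0.099, 0.060, 0.38 and 0.65). Mmp28, epilysin, was called at −0.28 under the inhibitor alone and rose by 0.50 (adjusted p = 0.041) when NaCl for 2 h was added, though without 1 array that adjusted p reached 0.33. Over all treatments Serpinb11 was below the pool on 28 of 29 arrays and Serpina3a on 24 of 30, and Serpinb9b was above it on 25 of 29. Serpinb11, Serpina3a, Serpinb9b and Mmp28 were named after their values were seen.

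Mmp12, the macrophage elastase, was higher on replicate 1 than on replicate 2 in each of the 11 wild type groups. Without the inhibitor its wild type arrays read 1.42 and −0.10 after anisomycin, 1.53 and 0.33 after TNFα, and 1.38 and 0.54, 0.98 and 0.12, and 1.09 and −0.28 at the 3 NaCl times, and the 2 replicates were scanned apart. It was not called in any counted comparison without the block, but with it after anisomycin (0.66, adjusted p = 0.038), TNFα (0.93, adjusted p = 0.0075) and 45 min of NaCl (0.96, adjusted p = 0.006), and between genotypes (−0.71, adjusted p = 0.01). Its p38α-/- arrays ran from −0.32 to 0.29, and in Cy5 it was well above background on 20 of 30 arrays and on neither p38α-/- array that was untreated or given NaCl. Mmp16, the membrane-anchored MT3-MMP, ran from −0.17 to 0.84 and was not called without the block either, except with the brightest probe in untreated p38α-/- cells and with scan as a term between genotypes. Like Mmp12 it was higher on replicate 1 than on replicate 2, here in every group. With the block Mmp16 was called after anisomycin (0.58 and −0.01, mean 0.29). At 45 min and 2 h of NaCl it was called too (0.71 and 0.05, mean 0.38, and 0.65 and 0.09, mean 0.37). So it was in untreated p38α-/- cells (0.64 and 0.25, mean 0.44) and between genotypes (0.23). Its 2 probes had medians of 0.07 and 0.53. Mmp12 and Mmp16 were named after their values were seen. Mmp2, gelatinase A, ran from −0.60 to 0.48 over 21 wild type arrays and was not called in any counted comparison. In p38α-/- cells its replicate 1 arrays read −0.44 to −0.97 and its replicate 2 arrays 0.10 to 0.23, and these were scanned apart. Wild type replicate 2 arrays, in the scan of the p38α-/- replicate 1 arrays, read −0.17 to 0.48. Within that scan the genotype difference was −0.80 after TNFα and −0.66 at 2 h of NaCl. Mmp3, stromelysin-1, stayed between −0.48 and 0.26, and with marked spots kept it rose between 45 min and 8 h of NaCl by 0.52 (adjusted p = 0.040). Mmp13, the main rodent interstitial collagenase, lay between −0.42 and 0.53 and was not called. Mmp9, gelatinase B, was represented by 2 probes that disagreed, one with a median of −0.52 over 8 arrays and the other 0.10 over 23, and its mean was not called.

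No Timp was called in the counted comparisons, except under alternatives: normexp called Timp1 after TNFα and Timp4 at 8 h of NaCl, the brightest probe Timp1 in untreated p38α-/- cells, the block Timp1 after TNFα, and the series matrix and marked spots kept called Timp2, Timp3 and Timp4 in 1 or more comparisons each. With marked spots left out Timp2 was measured on 15 arrays, Timp3 on 19 and Timp4 on 16. Timp1, a broad Mmp inhibitor, ran from −0.28 to 0.27 over 30 arrays. The TNFα arrays read 0.24 and 0.27 (mean 0.25 ± 0.09, adjusted p = 0.068, or 0.038 with the replicate block), and 1 of its 3 probes lay below 0 on all 21 arrays it was measured on while the other probes did not. Timp3, which binds to the matrix, was 0.76 and 0.69 on the single unmarked array of NaCl at 2 h and at 8 h, and −0.12 and −0.26 at 8 h with the inhibitor. With marked spots kept its mean at 8 h was 0.73 (adjusted p = 0.026). Under SB203580 it read 0.13 and −0.62 alone and 0.82 and 0.37 with 2 h of NaCl, which was called with the replicate block (difference 0.84, adjusted p = 0.025). Timp2, which also takes part in the activation of pro-Mmp2 by Mmp14, was higher in p38α-/- than in wild type cells by 0.40 ± 0.12 with marked spots kept (adjusted p = 0.032), and Timp4 lay between −0.49 and −0.04 on its 16 arrays.

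Among the inhibitory serpins of the cell surface, Serpine2, which traps thrombin and urokinase on the cell and in the matrix, was below the pool on all 28 arrays that measured it, from −0.98 to −0.02. It was called after anisomycin (−0.51, adjusted p = 0.011), NaCl at 45 min (−0.44, adjusted p = 0.029), SB203580 alone and in untreated p38α-/- cells (−0.48, adjusted p = 0.012), none of these holding with 1 array left out. A sign shared by all groups includes the pool and the dye. Serpinf1, pigment epithelium-derived factor, a serpin that inhibits no protease, ran from −0.58 to 0.08 and was called in untreated p38α-/- cells (−0.32, adjusted p = 0.041, or 0.56 without the first array). It was called after TNFα too with normexp, the brightest probe, spots well above background or the block. Serpinh1 (Hsp47), the collagen chaperone of the endoplasmic reticulum, ran from −0.13 to 0.73 over 18 arrays and was not called.

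Serpinb9c lay below the pool on every array, from −2.46 to −0.48. The 2 arrays read −0.95 and −1.47 after anisomycin, −1.66 and −1.96 after TNFα, and −1.49 and −1.53, −0.48 and −0.97, and −1.58 and −1.57 at the 3 NaCl times. They read −1.74 and −1.84 with SB203580 alone and −2.46 and −1.82 in untreated p38α-/- cells. It was called in all 7 comparisons with the pool (adjusted p from 3.0e-06 to 0.026), and the 2 h mean was the least low in wild type cells without the inhibitor. With the inhibitor and a stress it was −1.09 to −2.41, and in stressed p38α-/- cells −1.01 to −2.11. Because the deviation was present in every group, it cannot be told apart from a property of the pool or of the dye on this probe. Serpinb9c belongs to a group of related Serpinb9 genes, and whether its probe separates them was not tested. Serpinb1a, an inhibitor of neutrophil elastase named after its values were seen, was likewise below the pool on all 24 arrays that measured it, from −1.01 to −0.10, and was called after TNFα (−0.59), NaCl at 2 h (−0.77) and 8 h (−0.34) and SB203580 (−0.36), none of which held with 1 array left out.

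Serpinb9, which inhibits granzyme B, was 0.71 and 0.46 at 45 min of NaCl, 0.00 and 0.06 at 2 h, and 0.67 and 1.53 at 8 h, where it was called at 2.15-fold the pool (adjusted p = 0.016, or 0.38 without the second array). After TNFα it was 0.79 and 0.61. Its spots were well above background in Cy5 on 21 of 30 arrays and on 1 of the 2 at 2 h. The p38α-/- replicate 1 arrays read 0.92 to 1.68 and the replicate 2 arrays −0.35 to 0.50. Serpina3g, an intracellular inhibitor of cathepsins in haematopoietic cells, was −1.58 and −0.12 at 8 h of NaCl (mean −0.85, adjusted p = 0.044, or 0.91 without the first array, with 1 of 2 arrays well above background) and −1.47 and −0.71 in untreated p38α-/- cells (mean −1.09, adjusted p = 0.017, or 0.47 without the first). Serpinc1, antithrombin, was called after anisomycin (−1.47 and −1.93), TNFα (−0.98 and −2.14) and NaCl at 8 h (−0.59 and −1.71), with adjusted p = 0.008, 0.013 and 0.031 that reached 0.10, 0.33 and 0.50 with 1 array left out. Serpinc1 lay below the pool on all 25 arrays that measured it, from −2.14 to −0.24, whatever the treatment. A sign shared by all groups includes the pool and the dye. The 2 Serpinc1 probes disagreed, with one from −2.49 to −0.37 and the other from −0.55 to 0.32. The mean of an array thus depends on which of them was left out as marked. Serpinb13 (headpin) was well above background in Cy5 on 0 of 30 arrays and in Cy3 on 1, and no ratio is given for it.

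Between genotypes under the same stress, Serpinb6b was the 1 gene called of 44 tested (averaged over anisomycin, TNFα and NaCl at 2 h), where 8.81% of all genes were called. It is a mouse relative of the intracellular inhibitor Serpinb6a. In wild type cells it was above the pool on all 22 arrays, from 0.08 to 1.01, and in p38α-/- cells below it on all 8, at −0.10 and −1.03 untreated, −0.31 and −1.20 after anisomycin, −0.14 and −0.57 after TNFα, and −0.22 and −0.84 after NaCl. The difference was −1.05 ± 0.16 (2.07-fold lower, adjusted p = 0.00035), and it lay between −1.20 and −0.90 with 1 array left out, called each time. Within the scan that held both genotypes it was −0.71, −0.62 and −0.56 for the 3 stresses (−0.63 on average), and −0.66 (adjusted p = 0.00018) with scan as a term. Under anisomycin alone the difference was −1.26 ± 0.28 (adjusted p = 0.028), but the adjusted p was 0.61 with fewer arrays in the fit, and without the second p38α-/- array the difference was −0.81 (adjusted p = 0.33). In wild type cells Serpinb6b was highest at 8 h of NaCl (0.81 and 1.01, mean 0.91, adjusted p = 0.0023, or 0.080 without the second array) and lowest with SB203580 alone (0.10 and 0.08), which do not overlap. Whether the Serpinb6b probe also reports other Serpinb6 genes was not tested. Scan as a term called 4 of 44 members, beside 8.79% of all genes. Besides Serpinb6b these were Mmp16, Mmp20 and Serpinb9, all higher in p38α-/- cells. Within the shared scan their differences averaged 0.71, 0.38 and 0.82, the first and last larger in size than that of Serpinb6b.

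With marked spots kept, 8 of 74 genes were called between the genotypes, beside 12.8% of all genes, and with the replicate block 8 of 44, beside 18.4%, with Serpinb6b and Serpini1 in both. The calls with the block include the dim genes Serpinb13 and Serpina1b. Serping1, the C1 inhibitor of complement and kallikrein, was marked on 24 arrays, and with those spots kept it read 0.03 to −0.70 in wild type and −0.71 to −1.54 in p38α-/- cells, a difference of −0.93 ± 0.10 (adjusted p = 6.1e-06). Mmp14, the membrane-anchored activator of pro-Mmp2, read −0.43 to 0.25 in wild type and −1.04 to −0.43 in p38α-/- cells with marked spots kept, overlapping at one end, and differed by −0.56 ± 0.11 (adjusted p = 0.0023). With marked spots left out the wild type arrays ran from −0.74 to 0.38. Its 2 probes disagreed in sign in wild type cells, with medians of 0.16 and −0.37, and were both below 0 on every p38α-/- array. Mmp23, another membrane-bound member, read −0.58 to −0.10 against −1.35 to −0.54, and differed by −0.56 ± 0.11 (adjusted p = 0.0023). Within the scan shared by both genotypes the differences were −0.87 for Serping1, −0.58 for Mmp14 and −0.29 for Mmp23. Serping1 and Mmp23 were chosen after their values were seen.

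**Figure D3:**
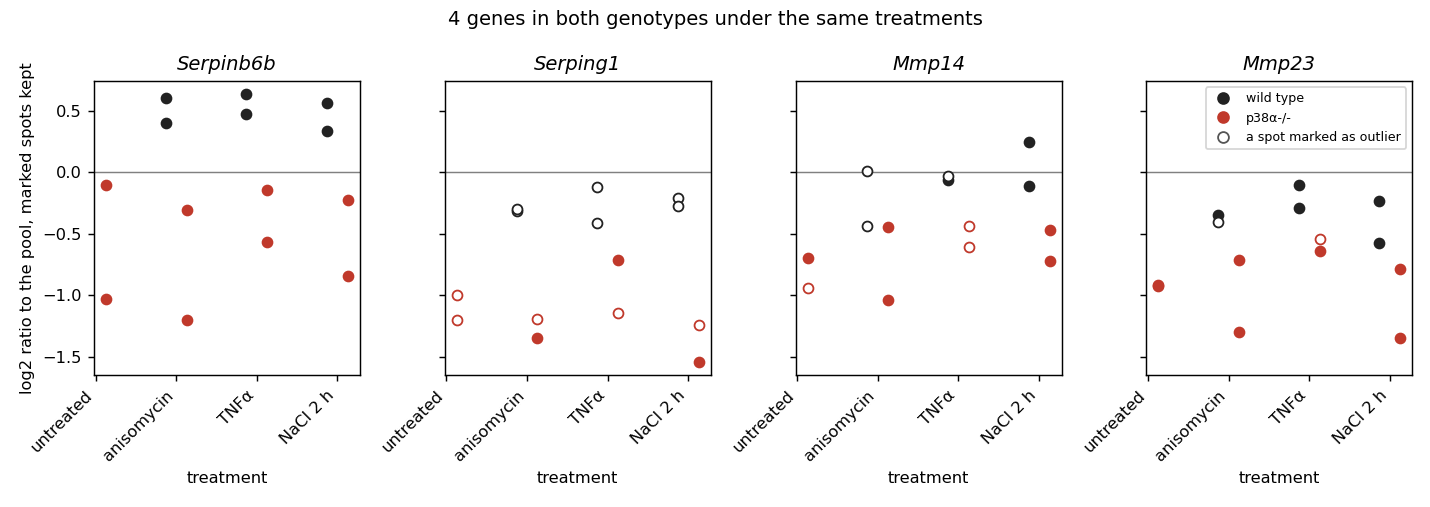
Log2 ratio over the untreated wild type pool of Serpinb6b, Serping1, Mmp14 and Mmp23 after anisomycin, TNFα and NaCl for 2 h in wild type (black) and p38α-/- cells (red), and in untreated p38α-/- cells, 1 point per array, with marked spots kept and drawn as open circles. Serpinb6b lies above 0 on the 6 wild type arrays and below 0 on all 8 p38α-/- arrays.

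Untreated p38α-/- cells against the pool had Mmp14 (−0.79, adjusted p = 0.01, or 0.23 with 1 array left out), Mmp23 (−0.92, adjusted p = 0.0014, or 0.057), Serpinb11 (−0.42, or adjusted p = 0.20 with 1 array left out) and Serpinb3c (0.71, or 0.36 to 1.06 with an adjusted p up to 0.66) among the 9 called, besides those given above. With marked spots kept 20 of 74 were called, beside 25.8% of all genes, among them Mmp11 (−0.55, adjusted p = 0.038). Mmp11 was below 0 on all 8 p38α-/- arrays, from −0.91 to −0.22. Each genotype is represented by 1 line as far as the labels say, so line and genotype cannot be told apart, and the p38α-/- arrays were spread over 3 of the 4 scans, 1 of them shared with wild type cells. Over the same 3 stresses, where 8.81% of all genes were called, the endothelial receptor gene Kdr was lower in p38α-/- cells (−1.59). It was the only 1 called of 3 endothelial markers tested, and the fibroblast markers Col1a1 (0.50) and Thy1 (0.58) were higher, as 2 of 5 tested. The part of these differences in the results above was not tested.

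Of 14 genes of the plasminogen and pericellular protease system, no more than 4 were called in a comparison. At 8 h of NaCl 3 of 9 tested were above the pool, beside the 22.2% of all genes called: Furin (1.21), the proprotein convertase that activates membrane-anchored Mmps, Plaur (1.16), the urokinase receptor, and Plat (0.46), tissue plasminogen activator. Plaur was also called at 2 h (0.61, 1 of 9 beside 9.92% of all genes), and Furin rose by 1.18 between 2 h and 8 h (1 of 7 beside 7.81%). After TNFα Pzp, an α-macroglobulin that traps proteases, was called below the pool (−0.52, 1 of 7 beside 11% of all genes). It was negative in each of the 7 comparisons with the pool (−0.52 to −0.19). Of the list 0 of 8 were called after anisomycin (beside 12%), 0 of 6 at 45 min of NaCl (beside 9.88%) and 0 of 4 between 45 min and 8 h (beside 7.53%). With SB203580 alone the lysosomal proteases Ctsl (0.96) and Ctsb (0.80) and the Mmp inhibitor Reck (0.32) were above the pool and thrombospondin 1, Thbs1 (−0.87), below it, 4 of 10 in all beside 26.6% of all genes. Vtn, vitronectin, an adhesive protein of the matrix and plasma, was higher in p38α-/- cells, by 1.84 against the pool and by 2.03 as a difference from stressed wild type cells, where it was the 1 called of 6 beside 8.81% of all genes. In untreated p38α-/- cells Thbs1 was lower (−0.60). The list was called in neither inhibitor comparison under stress, with limma in each case. The counts were 0 of 3 over the 5 stresses, beside 0.0742% of all genes, and 0 of 9 at 8 h, beside 0.206%. With shares that low, these counts say little about the list.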

How the data were processed

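Per the labels and the study's methods, total RNA went through 2 rounds of linear amplification and was hybridised to 2-colour Agilent 44K arrays. The authors read the spot intensities in Agilent Feature Extraction software (version 8.1.1.1 per the file headers, 9.1 per the labels), with dye normalization by a linear and a LOWESS step, no local background subtraction and a surrogate for dim signals. The deposited log10 ratios (Cy5 over Cy3) were multiplied by the log2 of 10. The amplification and the dye step can shift a probe's ratio on every array alike.

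A spot that the software had marked as an outlier in Cy5 or Cy3 was dropped, and the rest were averaged per probe, then per gene. limma 3.58.1 (R 4.3.3) fitted 15 group means over 30 arrays. Benjamini-Hochberg adjustment ran over all genes measured on every array compared, and a gene was called at an adjusted p under 0.05. Genes were named by a fixed list, or for a called mean of at least 1. The members and lists were chosen with earlier results of these data known, and 1 gene that the rule finds is not reported here. Of the 74 genes, 70 matched RefSeq by accession; the probes of Serpinb3c and Serpinb9f match Serpinb3a and Serpinb9g there. The labels do not say whether replicates were separate cultures, while the methods speak of 2 independent experiments, and p-values measure the spread between these arrays only. The pool's own spread is left out. The number of arrays limits the precision.

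Replicate numbers paired arrays within a genotype: deviations from the group mean correlated over 0.1 in 55 of 55 pairs of wild type groups (0.13 to 0.65) and in 6 of 6 pairs of p38α-/- groups (0.15 to 0.45). Arrays fell into 4 scans by header date, and wild type replicates 1 and 2 were scanned apart. Alternatives were normexp with an offset of 50 on the deposited intensities followed by loess, the authors' deposited series matrix of log2 values (its centring and scale are not stated), marked spots kept, spots well above background, the brightest probe, fewer arrays in the fit, the replicate block, 1 array left out and, chosen after seeing the data, scan as a term. The fit was tested on simulated data. SB203580 was given at 10 µM for 30 min before the stress per the methods, while the titles give 10 mM and 2 h. The genome build of the probe annotation is not given in the sources used here. No result uses the other columns of the scanner files.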

Additional observations from a re-analysis of the deposited data

Results flagged for a closer look

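The time or genotype differences that passed the test of the difference itself were Mmp10 between 8 h and 2 h of NaCl (0.60) and between 8 h and 45 min (0.67), Mmp15 between 8 h and 45 min (1.34), and Serpinb6b between p38α-/- and wild type cells under anisomycin (−1.26) and over the 3 stresses (−1.05). No group held enough arrays for a search for single deviating arrays.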

How the results depend on the processing

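No member call reversed. Of 315 values of 46 member calls (other than the single differences named next) under another setting, 298 kept their call and 17 lost it, 11 with fewer arrays in the fit and 6 with normexp. With 1 array left out, 53 of 110 values kept the call. The replicate block changed none of those calls, and not all of the calls it added are named here. Among them was Serpinb6b between genotypes under TNFα (−0.91, adjusted p = 0.0016) and NaCl at 2 h (−0.98, adjusted p = 0.00058). Another was Serpinb9c in p38α-/- cells, higher at 2 h of NaCl than untreated (1.04, adjusted p = 0.020).

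Named differences moved as follows. Mmp20 under SB203580 at 8 h of NaCl was called at 1.64 with fewer arrays, with the block and with spots well above background, at 0.88 with normexp and at 1.67 in the series matrix. The call of Serpinb6b between genotypes under anisomycin (−1.26) was lost with fewer arrays. Over arrays left out, Mmp11 at 8 h with the inhibitor ran from −1.46 to −0.98 and Serpinb6b under anisomycin from −1.70 to −0.81.

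Counts of members called moved by over 1.5 times in these cases. Each is given of those tested, with the percentage of all genes called in brackets. Normexp gave 8 of 53 for anisomycin (15.8%), 12 of 54 for TNFα (15.8%) and 4 of 44 for genotype (8.99%). It also gave 3 of 52 for 8 h against 2 h (8.24%) and 1 of 44 for 8 h against 45 min (7.74%). The inhibitor at 8 h had 1 of 49 (0.332%). The series matrix gave, of 72, 17 for anisomycin (25.7%), 14 for TNFα (23.7%) and 22 for SB203580 (41.6%). NaCl at 45 min, 2 h and 8 h gave 15, 14 and 17 of 72 (19.9%, 22.5% and 29.9%). Untreated p38α-/- cells had 18 of 70 (27.3%) and genotype 11 of 64 (16.0%). For 8 h against 45 min and 2 h it was 4 and 6 of 72 (10.4% and 10.6%). The inhibitor at 8 h had 1 of 72 (0.263%). Marked spots kept gave, of 74, 15 for anisomycin, 14 for TNFα and 26 for SB203580. NaCl at 45 min, 2 h and 8 h then gave 13, 13 and 14. Untreated p38α-/- cells had 20 and genotype 8. For 8 h against 45 min and 2 h it was 4 and 4. The block gave 13 of 53 for anisomycin (21.2%) and 13 of 54 for TNFα (18.1%). NaCl gave 10 of 48 at 45 min (20.2%) and 8 of 60 at 2 h (16.2%). Untreated p38α-/- cells had 14 of 56 (21.3%), 8 h against 2 h 5 of 52 (11.2%) and genotype 8 of 44 (18.4%). With the inhibitor it was 1 of 37 over the 5 stresses (0.232%) and 1 of 49 at 8 h (0.583%). Fewer arrays gave 7 of 53 for anisomycin (12.6%) and 7 of 54 for TNFα (11.6%). NaCl then gave 5 of 48 at 45 min (10.7%) and 6 of 61 at 2 h (10.3%). Untreated p38α-/- cells had 2 of 56 (3.37%) and 8 h against 2 h 2 of 52 (8.41%). The inhibitor had 1 of 37 over the 5 stresses (0.111%) and 1 of 49 at 8 h (0.219%). The brightest probe gave 7 of 58 at 2 h (15.5%). Spots well above background gave 1 of 32 for 8 h against 45 min (9.48%) and 1 of 40 for the inhibitor at 8 h (0.253%). Scan as a term gave 4 of 44 for genotype (8.79%). The other 37 counts stayed within 1.5 times. Arrays left out gave 1 to 4 for anisomycin, 2 to 3 for TNFα, 1 to 4, 0 to 2 and 4 to 5 for the NaCl times, 1 to 10 for SB203580, 3 to 8 for untreated p38α-/- cells, 0 to 1 for each time difference and 1 to 2 for genotype. The cause of these shifts was not tested; marked spots kept tests more genes.

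Besides Serpinb13, 6 members had a group with neither array well above background in Cy5.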
